A study of Mus musculus with 9 samples.

Results

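Control MLEC, which are primary endothelial cells cultured from mouse lung, were profiled by RNA-seq in 6 of the 9 libraries of the study. The 6 libraries were treated as one set to describe which genes these cells carried and at what level. The 3 ECtrl libraries came from Cdh5-Cre+ Jnk1+/+ Jnk2+/+ Jnk3-/- mice, in which Cre is driven by an endothelial promoter and JNK1 and JNK2 are intact. The 3 EfCtrl libraries came from Cdh5-Cre- Jnk1LoxP/LoxP Jnk2LoxP/LoxP Jnk3-/- mice, which carry the floxed alleles without Cre. Both groups lack JNK3, and all mice were adult C57BL/6J animals of 10-12 weeks. Each library was made from its own isolation, which pooled the lungs of 4 mice, and the cells were selected with an antibody to ICAM2 and grown with serum, endothelial growth supplement and heparin. The cells had therefore left the lung and its blood flow before RNA was prepared.

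Levels are given as FPKM, the number of fragments scaled to exon length and to all mapped fragments that the authors computed for each library, so levels of genes of different length can be set side by side. Of 37104 loci in the table, 18113 named protein-coding genes that name a single locus were ranked by mean FPKM over the 6 libraries. A gene was counted as expressed at a mean of 2 FPKM or more. Values written with ± are the mean and SD over the 6 libraries. The number of fragments behind a value is unknown, so a gene with no signal is described as listed at 0. *Mapk9* (JNK2) was at 46.5 ± 2.99 FPKM and *Mapk8* (JNK1) at 16.0 ± 1.45 FPKM, while *Mapk10*, the JNK3 gene, lay from 0.0286 to 0.270, with a median of 0.105 FPKM.

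Endothelium lines blood and lymphatic vessels, and its cells share a core of junction proteins, receptors and transcription factors. Arteries, capillaries, veins and lymphatic vessels each add genes of their own. Notch signaling and ephrin-B2 mark arteries, the nuclear receptor COUP-TFII and EphB4 mark veins, and the homeodomain protein PROX1 sets lymphatic identity. Lung capillaries hold general capillary cells and the thin aerocytes across which gas is exchanged.

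ECtrl replicates 1 and 3 stood apart from the other libraries. They had the lowest mean Spearman correlations with the others over the expressed genes, at 0.971 and 0.974 against 0.978 to 0.983. ECtrl replicate 1 was the highest library for 26.5% of the expressed genes and ECtrl replicate 3 for 26.0%, against 7.94% to 16.5% for the others. The lowest library was ECtrl replicate 2 for 25.3%, ECtrl replicate 1 for 21.1% and ECtrl replicate 3 for 17.5% of these genes. The summed FPKM of the ranked genes was 360510, 341629 and 362453 in ECtrl replicates 1, 2 and 3. The part of these sums in the counts was not tested. The summed levels of the leukocyte, smooth muscle and mesothelial markers were lowest in ECtrl replicate 1, and the summed level of the lymphatic markers was highest there. Over the 15 pairs of libraries the correlation lay between 0.963, for these ECtrl replicates with each other, and 0.988.

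The endothelial label was checked with 5 markers, and all 5 were expressed in every library. *Emcn*, the sialomucin endomucin of capillary and venous endothelium (chromosome 3, 137341067 to 137432185, plus strand, mm10), lay from 822 to 1095, with a median of 999.5 FPKM. *Cdh5*, the VE-cadherin of endothelial junctions (chromosome 8, 104101625 to 104144511, plus strand), lay from 613 to 916, with a median of 832 FPKM. *Pecam1*, the junctional protein CD31 (chromosome 11, 106654217 to 106750628, minus strand), lay from 649 to 771, with a median of 697 FPKM. These 3 genes ranked between 21 and 35 of 18113. *Kdr*, the VEGF receptor VEGFR2 (chromosome 5, 75932827 to 75978458, minus strand), lay from 124 to 147, with a median of 131 FPKM. *Tek*, the angiopoietin receptor TIE2 (chromosome 4, 94739289 to 94874976, plus strand), lay from 42.2 to 49.9, with a median of 43.4 FPKM. *Tek* was thus the lowest of the 5, and its highest library was below the lowest library of *Kdr*.

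The sequences upstream of 3 genes are shown because they place the level of a gene beside the composition of its promoter. They are the 250 bases before the RefSeq transcription start of *Emcn* (GRCm38.p6, chr3:137340828-137341077, plus strand), *Kdr* (chr5:75978456-75978705, minus strand) and *Hey2*, a Notch target of arteries (chr10:30842784-30843033, minus strand). Capitals mark each CG dinucleotide, which reads the same on both strands.
Emcn: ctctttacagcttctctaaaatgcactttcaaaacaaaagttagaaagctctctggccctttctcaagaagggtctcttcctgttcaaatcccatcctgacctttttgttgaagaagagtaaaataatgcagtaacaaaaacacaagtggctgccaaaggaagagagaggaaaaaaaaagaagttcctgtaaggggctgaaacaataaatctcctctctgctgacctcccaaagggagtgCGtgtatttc
Kdr: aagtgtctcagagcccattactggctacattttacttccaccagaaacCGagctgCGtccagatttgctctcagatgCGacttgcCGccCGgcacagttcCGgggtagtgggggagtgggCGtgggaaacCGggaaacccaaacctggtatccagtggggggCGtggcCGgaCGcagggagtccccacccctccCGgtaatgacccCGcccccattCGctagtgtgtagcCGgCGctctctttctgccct
Hey2: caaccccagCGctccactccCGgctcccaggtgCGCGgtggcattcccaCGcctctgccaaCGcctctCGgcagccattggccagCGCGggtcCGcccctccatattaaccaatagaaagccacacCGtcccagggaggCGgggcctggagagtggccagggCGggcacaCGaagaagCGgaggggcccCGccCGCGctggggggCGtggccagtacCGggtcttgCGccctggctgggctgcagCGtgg
The *Emcn* window held 1 CG, the *Kdr* window 16 and the *Hey2* window 22, with *Emcn* at 973 FPKM and *Hey2* at 0.0567 FPKM. These genes are examples, and their order is opposite to that of the class medians given next. No relation of level to CG content is drawn from them. At least 1 CG was present in 92.1% of the 32851 promoter windows of the same length. Between level classes the median was 2 CG for genes listed at 0 in all 6 libraries, 16 for genes of 2 to under 10 FPKM and 18 for genes of 10 to under 100 FPKM, with 81.5%, 80.8% and 81.5% of the genes of these classes matched to a promoter. The check was taken as void where fewer than 80% of the genes had a promoter in the RefSeq table. This was so for the class of 100 FPKM or more, which holds *Emcn* and *Kdr* (79.5% matched, with a median of 16 CG). It was also so for both classes between 0 and 2 FPKM (75.9% and 76.3%), of which the lower holds *Hey2*. The pan-endothelial list (50%) was void as well.

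Of the ranked genes, 9025 (49.8%) were expressed, and 8457 of these reached 2 FPKM in every library. A further 3873 genes (21.4%) were listed at 0 in all 6 libraries. The median level was 1.95 FPKM over all ranked genes and 14.6 FPKM over the expressed genes. There were 4958 genes of 10 to under 100 FPKM, 636 of 100 to under 1000 FPKM and 19 of 1000 FPKM or more. The 100 highest ranked genes of a library held 23.4% to 24.4% of the summed FPKM of its ranked genes.

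**Figure D1:**
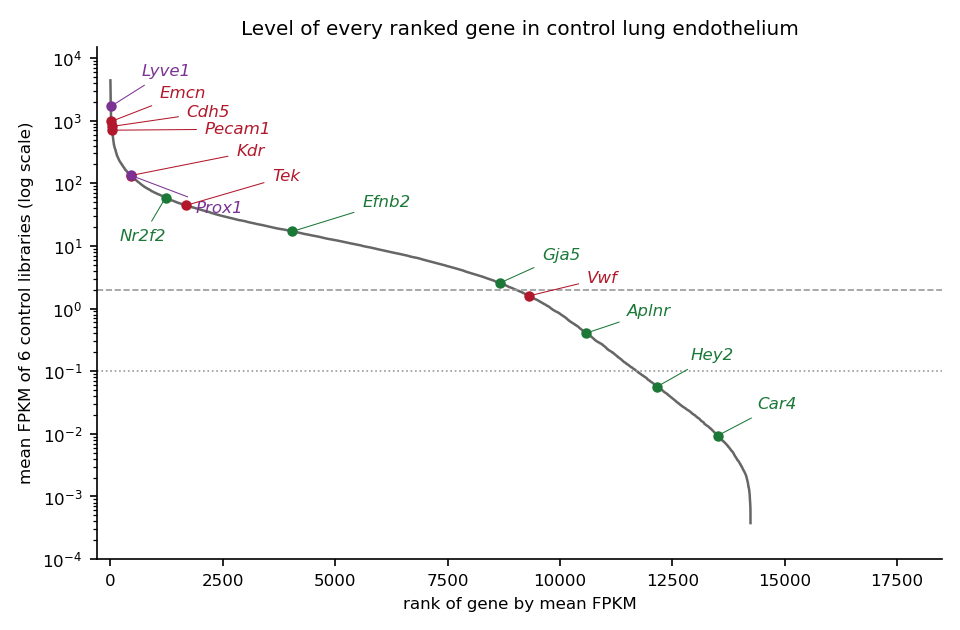
Mean FPKM of the 6 control libraries (log axis) against rank for the ranked genes above 0, with named genes as points: pan-endothelial genes in red, lymphatic genes in purple, and arterial, venous and capillary genes in green. The dashed line is at 2 FPKM and the dotted line at 0.1 FPKM; *Lyve1* lies at 1689 FPKM, *Cdh5* at 807 FPKM and *Car4* at 0.00934 FPKM.

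Genes of the cytoskeleton, iron storage, mitochondria and the cell surface led the ranking. *Tmsb4x*, which encodes the actin-binding thymosin beta 4, was highest at 4399.8 ± 458 FPKM, followed by the ferritin heavy chain *Fth1* at 4049.5 ± 247 FPKM and the intermediate filament *Vim* at 3640.1 ± 309 FPKM. The mitochondrial genes *mt-Nd6* and *mt-Cytb* were at 3311 ± 551 and 2800.5 ± 249.7 FPKM. *Fabp4*, a fatty acid carrier of capillary endothelium, was at 2052 ± 283 FPKM, *B2m* of the MHC class I complex at 1859.7 ± 163 FPKM and the selenoprotein *Sepp1* at 1795 ± 217 FPKM. Among the other genes of the top 15 were 4 with a vascular or matrix role: the lymphatic hyaluronan receptor *Lyve1*, fibronectin (*Fn1*), the matrix protein *Sparc* and the TIE2 ligand *Angpt2*. The rest were the elongation factor *Eef1a1*, the calcium-binding *S100a6* and the nuclease-domain protein *Snd1*.

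Levels of 4 of these leading genes are uncertain. *Snd1* lay from 57.8 to 3516 FPKM over the libraries, and the authors' group values were only 0.257 of the mean of its libraries. For *mt-Nd6* the authors' value was 0 in both groups, and for *Eef1a1* and *Fn1* it was 0 in EfCtrl, where the table marks these genes as having too many reads for a test. Over the expressed genes the authors' group value was 1.07 times the mean of the libraries at the median, and 57 genes differed by more than 1.5 times either way.

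The core endothelial program was present almost in full. Of 22 pan-endothelial genes measured, 21 were expressed, 16 were at 100 FPKM or more, and none was below 0.1 FPKM. Their median was 143 FPKM. *Plvap*, which forms the diaphragms of fenestrae and caveolae, was at 579 ± 119 FPKM, the sphingosine 1-phosphate receptor *S1pr1* at 364 ± 17.4 FPKM and the tight junction protein *Cldn5* at 217 ± 42.5 FPKM. *Icam2* was at 187 ± 22.1 FPKM, but ICAM2 was used to select the cells, so this level is no independent sign of identity. *Eng*, *Egfl7* and *Ramp2* share rows of the table with other genes, and their own levels cannot be told apart from those of their neighbors.

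A pair of classical endothelial genes was low. *Vwf*, the von Willebrand factor of larger vessels, was the only pan-endothelial gene below 2 FPKM and lay from 0.881 to 2.15, with a median of 1.63 FPKM. *Nos3*, the endothelial nitric oxide synthase, lay from 1.90 to 3.88, with a median of 3.11 FPKM and shares 294 bases with *Atg9b* on the opposite strand. Both were well below the other endothelial genes, the next of which, the surface lectin *Clec14a*, lay from 14.6 to 18.3 FPKM.

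Lymphatic genes were expressed without exception among those measured. All 13 lymphatic genes were at 2 FPKM or more on average, 6 of them at 100 FPKM or more, and their median was 66.9 FPKM. *Lyve1* (chromosome 7, 110850607 to 110863239, minus strand) lay from 1534 to 2050.4, with a median of 1638 FPKM and ranked 10 among all genes. *Prox1* (chromosome 1, 190118035 to 190170714, minus strand) lay from 117 to 158, with a median of 133 FPKM. *Pdpn*, the membrane mucin podoplanin (chromosome 4, 143267431 to 143299564, minus strand), lay from 295 to 397, with a median of 342 FPKM. *Flt4*, the VEGF-C receptor VEGFR3 (chromosome 11, 49609263 to 49652739, plus strand), lay from 127 to 188, with a median of 169.9 FPKM. All 4 genes were above 100 FPKM in every library.

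The other lymphatic genes ranged widely. *Mmrn1*, multimerin 1, was at 373 ± 72.9 FPKM, the neuropeptide precursor *Nts* at 156 ± 48.0 FPKM and the secreted glycoprotein *Reln* at 66.9 ± 11 FPKM. The transcription factors *Tbx1* and *Maf* were at 37.3 ± 9.27 and 22.7 ± 4.21 FPKM. *Ccl21a*, the chemokine by which lymphatic vessels attract dendritic cells, was lowest and lay from 2.03 to 9.83, with a median of 4.69 FPKM. *Foxc2*, a factor of lymphatic valves, was not analysed here. In RNA from a whole culture, fewer cells of a type and less RNA per cell cannot be told apart, and this holds for every list below.

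ECtrl replicate 1 was the highest library for 10 of the 13 lymphatic genes, against 26.5% of all expressed genes. It was also highest for 13 of 21 expressed endothelial transcription factors and for 7 of 12 cell cycle genes. The summed lymphatic level was 3740.4 FPKM in ECtrl replicate 1 and 2661 to 3072 FPKM in the other 5 libraries. *Fgl2*, a secreted fibrinogen-like protein, was at 44.3 FPKM in ECtrl replicate 1 and at 11.7 to 24.1 FPKM elsewhere. Without this library all 13 genes were still at 2 FPKM or more. The part of this library's lower leukocyte and smooth muscle signal in its lymphatic level was not tested.

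Venous and arterial genes were both expressed, and the median of the venous list was above that of the arterial list. The lists differ in size and members, so this order does not rank the vessel types. The part of cells with lymphatic genes in the venous levels was not tested. Of 9 venous genes, 7 were expressed, with a median of 28.8 FPKM. The serine protease *Prss23* was at 309 ± 26.6 FPKM, the semaphorin and VEGF-C co-receptor *Nrp2* at 163 ± 21.2 FPKM and *Nr2f2*, which encodes COUP-TFII, at 59.1 ± 3.11 FPKM. *Ephb4*, the venous ephrin receptor, was at 44.5 ± 6.24 FPKM, and P-selectin (*Selp*), which venules store for leukocyte rolling, at 28.8 ± 6.51 FPKM. The chemokine sink *Darc* lay from 0 to 0.412 FPKM and the noradrenaline transporter *Slc6a2*, a gene of large pulmonary veins, was listed at 0 in all 6 libraries.

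Of 19 arterial genes, 16 were expressed, with a median of 8.80 FPKM. The chemokine receptor *Cxcr4* was highest at 198 ± 34.0 FPKM, followed by the netrin receptor *Unc5b* at 45.6 ± 5.72 FPKM and the elastic fiber protein *Fbln5* at 32.7 ± 2.45 FPKM. *Efnb2*, the arterial ephrin ligand, was at 17.1 ± 1.66 FPKM. The connexins of arterial junctions were near the limit, *Gja4* lying from 2.09 to 5.56 FPKM and *Gja5* from 1.5 to 4.78 FPKM, and *Gja5* overlaps *Gpr89* (11.7 FPKM) on the opposite strand. *Sox17* was at 2.77 ± 0.538 FPKM, the kinase *Bmx* at 1.25 ± 0.183 FPKM and *Hey2* lay from 0 to 0.105 FPKM. The connexins, *Sox17*, *Bmx* and *Hey2* were thus among the low members of the list.

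Capillary genes of the lung were split. Of 19 measured, 10 were expressed and 2 were below 0.1 FPKM, and the median was 3.85 FPKM. The C-type lectin-like receptor *Cd93* was at 209 ± 34.2 FPKM and the cytochrome *Cyp4b1* at 25.3 ± 2.37 FPKM. Of the genes of general capillary cells, *Kit* was at 28.6 ± 5.17 FPKM and *Gpihbp1*, which anchors lipoprotein lipase, at 9.80 ± 2.84 FPKM, while the apelin receptor *Aplnr* lay from 0.173 to 0.746, with a median of 0.377 FPKM. Of the genes of aerocytes, *Apln* was at 118 ± 35.5 FPKM and the endothelin receptor *Ednrb* at 68.7 ± 12.4 FPKM. Carbonic anhydrase 4 (*Car4*) was listed at 0 in 5 of 6 libraries and at 0.0561 FPKM in the sixth, the sodium channel *Scn7a* lay from 0.0121 to 0.107 FPKM, periaxin (*Prx*) from 0.0837 to 0.164 FPKM and *Tbx2* from 0.139 to 0.498 FPKM. Neither capillary program was therefore present or absent as a whole at the RNA level. *Foxf1a* was not analysed here.

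**Figure D2:**
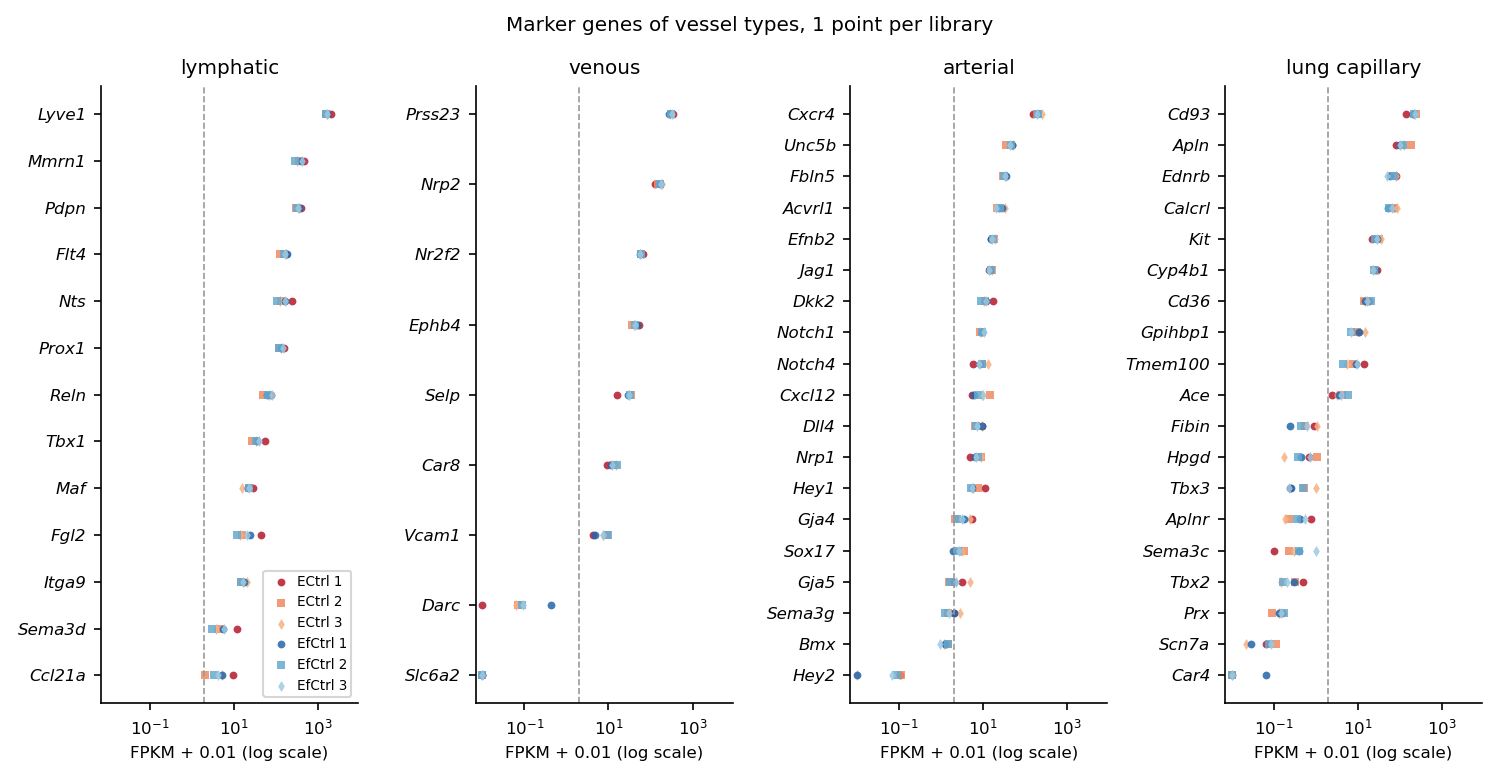
FPKM + 0.01 (log axis) of each measured lymphatic, venous, arterial and lung capillary gene, with 1 point per library, red shades for ECtrl and blue shades for EfCtrl, and the dashed line at 2 FPKM. All lymphatic genes lie at or right of the line on average, while *Slc6a2*, *Hey2* and *Car4* lie at the left ends of the venous, arterial and capillary panels.

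Genes of endothelium from other organs were mixed. Among sinusoidal genes, the scavenger receptor *Stab1*, which lymphatic endothelium and macrophages also carry, was at 591 ± 137 FPKM, *Stab2* at 7.39 ± 2.93 FPKM and the mannose receptor *Mrc1* at 5.09 ± 1.89 FPKM. The lectin *Cd209b* was listed at 0, and 4 of 7 sinusoidal genes were below 2 FPKM. Among brain endothelial genes, the glucose transporter *Slc2a1* was at 22.0 ± 3.15 FPKM and the efflux pump *Abcb1a* at 5.19 ± 1.09 FPKM. The 5 others measured were below 2 FPKM, *Mfsd2a* and *Slco1c1* having means of 0.0989 and 0.0141 FPKM, and *Slc22a8* was listed at 0.

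Most transcription factors of endothelium were expressed. Of 25 measured, 21 were expressed, with a median of 41.1 FPKM and a median coefficient of variation (the SD as a percentage of the mean, over the 6 libraries) of 9.50%. The ETS factor *Erg* was at 139 ± 14 FPKM, *Sox18* at 129 ± 13.1 FPKM, *Elk3* at 129 ± 9.67 FPKM and *Foxo1* at 41.1 ± 1.70 FPKM. The flow-responsive factors *Klf4* and *Klf2* were at 46.0 ± 11.5 and 22.9 ± 7.57 FPKM, with coefficients of variation of 25.1% and 33.1%, and both were highest in ECtrl replicate 1. The summed level of the list was 1325 FPKM in that library and 1156 to 1209 FPKM in the other 5. *Meox1* was at 55.6 ± 11.3 FPKM, whereas its paralog *Meox2*, a gene of the homeobox family, lay from 0.0675 to 0.108 FPKM.

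Receptors for growth factors were led by those of the VEGF and angiopoietin systems. Of 26 receptor tyrosine kinases and neuropilins, 16 were expressed. *Flt4*, *Nrp2*, the orphan receptor *Tie1* (136 ± 17.0 FPKM) and *Kdr* were above 100 FPKM, and the FGF receptor *Fgfr1* followed at 88.2 ± 7.65 FPKM. *Flt1*, the VEGF and PlGF receptor VEGFR1, was much lower and lay from 2.44 to 6.63, with a median of 4.70 FPKM. The lowest members were *Erbb3* at 0.0797 FPKM, *Ret* at 0.0154 FPKM and *Fgfr4*, which was listed at 0.

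Of 24 G protein-coupled and calcitonin receptors, 13 were expressed and 4 were below 0.1 FPKM. *S1pr1* and *Cxcr4* led this list, and the thrombin receptor *F2r* was at 132 ± 13.3 FPKM. The adrenomedullin receptor *Calcrl* was at 67 ± 11.7 FPKM with *Ramp3*, its accessory protein, at 13.4 ± 3.61 FPKM, while the neural accessory protein *Ramp1* was listed at 0 in 5 libraries. *S1pr3* lay from 0 to 0.137 FPKM, the endothelin A receptor *Ednra* from 0 to 0.148 FPKM and the angiotensin receptor *Agtr1a* from 0 to 0.0718 FPKM.

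The TGF-beta receptor *Tgfbr2* was at 361 ± 12.0 FPKM and had the lowest coefficient of variation of all listed genes at 2 FPKM or more (3.34%). Of 10 TGF-beta and BMP receptors measured, 7 were expressed, the others being *Bmpr1a*, *Bmpr1b* and *Acvr2b* at 0.522, 0.128 and 0.116 FPKM. *Acvrl1*, the endothelial BMP receptor ALK1, was at 25.3 ± 4.50 FPKM and *Bmpr2* at 23.4 ± 5.83 FPKM. In the Notch family 6 of 9 genes were expressed, with *Jag1* at 14.9 ± 1.10 FPKM, *Notch2* at 12.6 ± 1.54 FPKM and *Dll4*, the ligand of tip and arterial cells, at 8.16 ± 1.57 FPKM. *Notch3*, a receptor of mural cells, and *Dll3* were at 0.0551 and 0.00437 FPKM. *Notch4* was at 9.01 ± 2.44 FPKM over the libraries, but the authors' group values were 4.78 times this mean, and for *Notch1* 1.73 times, so the levels of these receptors are uncertain.

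Secreted growth factors were expressed widely, 24 of 29 reaching 2 FPKM. *Angpt2*, which is stored by endothelium and acts on TIE2, lay from 970.2 to 1340.2, with a median of 1169 FPKM, and its gene lies within *Mcph1* on the opposite strand, which was at 26.5 FPKM. The placental growth factor *Pgf* was at 223 ± 20.0 FPKM, adrenomedullin (*Adm*) at 157 ± 22.0 FPKM, the matricellular factor *Ctgf* at 149 ± 25.3 FPKM and the vasoconstrictor *Edn1* at 89.7 ± 17.7 FPKM. *Igf2* varied most among the growth factors and lay from 35.7 to 154, with a median of 65.8 FPKM, the highest value being that of ECtrl replicate 1. Of the ligands of the VEGF receptors other than *Pgf*, *Vegfa* lay from 1.22 to 3.98 FPKM and *Vegfc* from 2.13 to 3.50 FPKM. The remaining VEGF ligands are not described here. *Angpt1*, the ligand supplied by mural cells, lay from 0.0962 to 0.464 FPKM.

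Some ligands had their receptor in the same libraries and others did not. *Edn1* was accompanied by *Ednrb* at 68.7 FPKM but not by *Ednra* at 0.0557 FPKM. *Adm* was accompanied by *Calcrl*. *Apln* was at 118 FPKM with *Aplnr* at 0.406 FPKM, and *Pgf* was at 223 FPKM with its receptor *Flt1* at 4.67 FPKM. For *Cxcl12* the receptor was the higher partner, at 198 FPKM for *Cxcr4* and 13.1 FPKM for the scavenging receptor *Cxcr7* against 8.80 ± 3.23 FPKM for the ligand.

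Inflammatory mediators were mostly low. Of 22 cytokines and chemokines, 9 were expressed. The monocyte chemokine *Ccl2* was the exception and lay from 144 to 287, with a median of 213 FPKM, and *Csf1* and *Il7* were at 27.0 ± 5.42 and 12.7 ± 3.91 FPKM. *Il6* lay from 0 to 0.224 FPKM, *Il1b* from 0 to 0.348 FPKM and *Csf2*, *Cxcl5* and *Cxcl9* had means of 0.0451, 0.0729 and 0.0245 FPKM. The cytokine-induced E-selectin (*Sele*) lay from 0.112 to 0.480 FPKM, *Vcam1* was at 7.16 ± 2.22 FPKM and *Icam1* at 8.35 ± 1.85 FPKM.

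Genes of the endothelial basement membrane were expressed as a set. Of 18 measured, 14 were at 2 FPKM or more, with a median of 27.4 FPKM. *Sparc* was at 1495 ± 153 FPKM, *Col18a1*, the source of endostatin, at 313 ± 60.02 FPKM, *Col4a1* at 172 ± 16.4 FPKM and *Lama4*, the laminin chain of vessels, at 123 ± 9.41 FPKM. The epithelial chains *Lama3* and *Col4a3* were at 0.0628 and 0.0467 FPKM. Among interstitial matrix and IGF-binding proteins, *Fn1* lay from 954 to 1900.3 FPKM, *Thbs1* was at 447 ± 60.3 FPKM, *Igfbp7* at 392 ± 67.6 FPKM and tenascin C (*Tnc*) at 365 ± 47.0 FPKM. Elastin (*Eln*) and *Igfbp6* had means of 0.0256 and 0.0468 FPKM, and *Igfbp2* was listed at 0.

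Fibrinolytic and anticoagulant genes were high and tissue factor was low. Of 20 haemostatic and vasomotor genes, 16 were expressed. Urokinase (*Plau*) was at 998 ± 48.3 FPKM, caveolin 1 (*Cav1*) at 671 ± 36.1 FPKM and annexin A2 (*Anxa2*), a plasminogen receptor, at 548 ± 49.1 FPKM. The tissue plasminogen activator *Plat* was at 52.7 ± 8.68 FPKM. The protein C receptor *Procr*, thrombomodulin (*Thbd*) and the tissue factor inhibitor *Tfpi* were at 139 ± 21.5, 48.6 ± 4.8 and 63.0 ± 4.52 FPKM. Tissue factor (*F3*), which starts clotting, lay from 0.274 to 1.59 FPKM. The prostacyclin synthase *Ptgis* and the cyclooxygenases *Ptgs1* and *Ptgs2* were at 1.12 ± 0.825, 1.88 ± 1.11 and 2.46 ± 1.04 FPKM.

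Of 21 adhesion and junction genes, 19 were expressed. The junctional molecule *F11r* was at 274 ± 24 FPKM and the connexin *Gja1* at 156 ± 14.3 FPKM, while *Jam2* was at 0.928 ± 0.502 FPKM. All 12 cell cycle genes were expressed, with *Top2a* at 39.8 ± 11.1 FPKM, *Mki67* at 8.10 ± 0.974 FPKM, *Ccnd1* at 64.3 ± 9.74 FPKM, *Cdk1* at 58.3 ± 12.5 FPKM and the inhibitor *Cdkn1a* at 191 ± 27.1 FPKM. Among the 10 housekeeping genes measured *Actb* was at 434 ± 48.1 FPKM, *Tubb5* at 287 ± 27.3 FPKM and *Gapdh* at only 4.54 ± 0.494 FPKM. *Gapdh* has near-identical pseudogene copies, and how reads shared with them were counted is not given in the sources used here, so its level is uncertain.

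The order of the levels of related genes was tested for 19 pairs within each library, as the difference of log2(FPKM + 0.1), by an exact two-sided sign-flip permutation test over the 6 libraries. The smallest p this design can give is 0.0312, which became 0.0371 after Benjamini-Hochberg adjustment over the 19 pairs. In 16 pairs the order was the same in 6 of 6 libraries with this adjusted p from the exact permutation test. Any pair with the same order in every library receives this p, whatever the size of its difference. The pairs were chosen with earlier results of these data known, so the p-values are no independent support for an order.

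Among receptors, *Flt4* was higher than *Kdr* in 6 of 6 libraries, by 0.30 ± 0.14 on the log2 scale. *Kdr* exceeded *Flt1* by 4.86 ± 0.47, *Nrp2* exceeded *Nrp1* (7.24 ± 1.51 FPKM) by 4.49 ± 0.24 and *Tie1* exceeded *Tek* by 1.61 ± 0.19, each on the log2 scale. *Flt4* was therefore above *Kdr* by a small margin and *Nrp2* above *Nrp1* by a wide one. *S1pr1* exceeded *S1pr3* by 11.19 ± 0.51 on this scale, where the low level of *S1pr3* makes the size depend on the pseudocount (8.43 with a pseudocount of 1 and 12.77 with 0.01).

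Among the factors of vessel identity, *Prox1* exceeded *Nr2f2* by 1.18 ± 0.15 and *Ephb4* exceeded *Efnb2* by 1.37 ± 0.33 on the log2 scale, both in 6 of 6 libraries. *Lyve1* exceeded *Pdpn* by 2.31 ± 0.07, the most even difference of all pairs. *Sox18* exceeded *Sox17* by 5.50 ± 0.39, *Erg* exceeded *Fli1* (67 ± 8.27 FPKM) by 1.06 ± 0.32 and *Jag1* exceeded *Dll4* by 0.88 ± 0.34. These differences compare RNA levels of single genes and do not rank vessel types.

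Among structural and secreted genes, *Gja1* exceeded *Gja4* by 5.48 ± 0.62, *Icam2* exceeded *Icam1* by 4.50 ± 0.26 and *Stab1* exceeded *Stab2* by 6.34 ± 0.68 on the log2 scale. *Col4a1* exceeded *Col4a2* (131 ± 15.3 FPKM), with which it shares a promoter region, by 0.40 ± 0.08. *Angpt2* exceeded *Angpt1* by 11.85 ± 0.53, a size that also depends on the pseudocount (9.87 with a pseudocount of 1 and 12.41 with 0.01). The order of 2 other pairs was not resolved: *Notch1* and *Notch4* differed by 0.07 ± 0.44 (3 of 6 libraries each way, adjusted p = 0.759, exact permutation test) and *Vegfc* and *Vegfa* by 0.54 ± 0.64 (5 of 6 libraries, adjusted p = 0.175, exact permutation test). For *Notch1* and *Notch4* this holds for the library values only. The authors' group values lie above them by a larger factor for *Notch4*, so the order of this pair is uncertain.

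**Figure D3:**
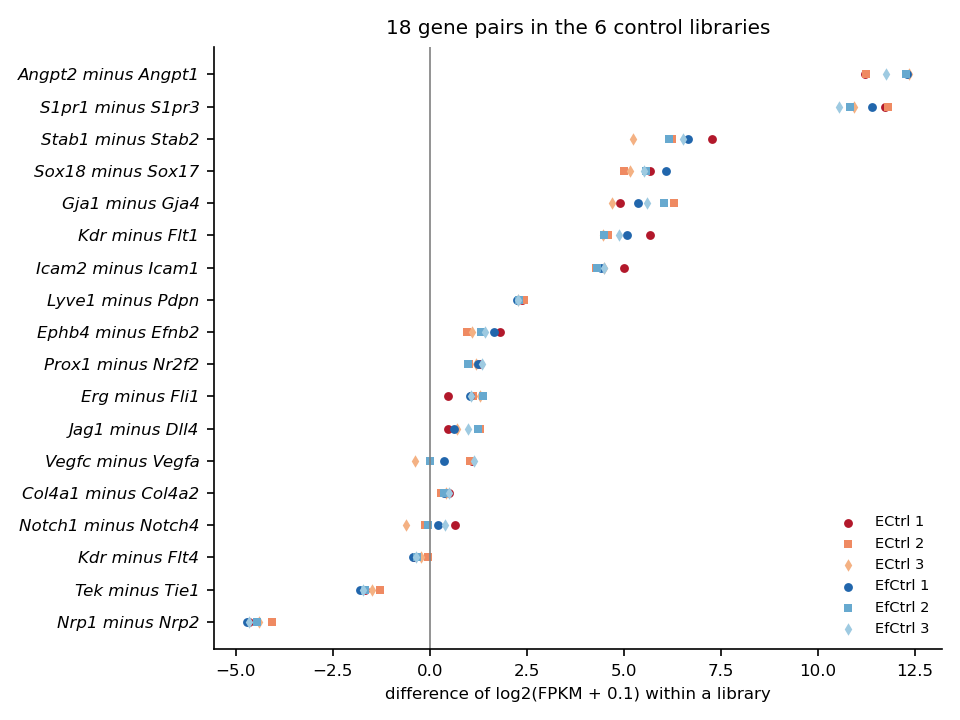
Difference of log2(FPKM + 0.1) between the genes of 18 pairs, with 1 point per library, red shades for ECtrl and blue shades for EfCtrl, and the line at no difference. The 6 points lie on one side of the line for 16 pairs and on both sides for *Notch1* and *Notch4* and for *Vegfc* and *Vegfa*.

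Markers of other cell types were low but not absent, and they differed between libraries. Of 14 leukocyte genes, 5 were expressed. The macrophage lysozyme *Lyz2* lay from 28.0 to 191, with a median of 109 FPKM, *Cd68* was at 19.2 ± 5.51 FPKM and *Fcer1g* at 17.8 ± 4.89 FPKM, whereas the pan-leukocyte *Ptprc* lay from 0.0919 to 1.23 FPKM and the T cell gene *Cd3e* was listed at 0. The summed leukocyte level was 54.3 FPKM in ECtrl replicate 1 and 133 to 276 FPKM in the other libraries, which is 1.00% to 4.79% of the summed pan-endothelial level of the same library.

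Of 10 smooth muscle and pericyte genes, only *Acta2* (from 4.31 to 35.1 FPKM) and *Tagln* (from 3.74 to 18.8 FPKM) were expressed, and *Notch3*, *Rgs5*, *Myocd* and *Cspg4*, which define mural cells, had means of 0.0551, 0.0460, 0.0177 and 0.00469 FPKM. The summed level was 8.47 FPKM in ECtrl replicate 1 and 19.5 to 56.3 FPKM in the others. Of 10 fibroblast genes, 5 were expressed, but *Thy1*, which lymphatic endothelium also carries, held most of the sum at 276 ± 63.5 FPKM. Without *Thy1* the fibroblast sum was 6.90 to 29.2 FPKM, again lowest in ECtrl replicate 1, and the fibroblast genes *Lum* and *Tcf21* had means of 0.0120 and 0.0366 FPKM. The parts of these cells in the endothelial levels were not tested.

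Epithelial RNA was near 0. Of 12 lung epithelial genes only the keratin *Krt18* was expressed, at 2.59 ± 0.973 FPKM, and 8 were below 0.1 FPKM. The surfactant genes *Sftpc*, *Sftpb* and *Sftpa1* had means of 0.0274, 0.0202 and 0.0176 FPKM, *Epcam*, *Cdh1* and *Foxj1* of 0.0949, 0.0807 and 0.0328 FPKM, and *Nkx2-1* and *Aqp5* were listed at 0. All 5 mesothelial genes were below 2 FPKM, the highest being *Wt1* at 0.835 ± 0.696 FPKM, and their sum was 0.0979 FPKM in ECtrl replicate 1 and 1.07 to 3.60 FPKM in the others. Of 6 erythroid and platelet genes none was expressed, *Alas2* having a mean of 0.0240 FPKM, and the globins *Hba-a1* and *Hbb-b1* were listed at 0. None of the 10 genes of liver, neurons, glia, heart and islets was expressed, with *Alb* highest at 0.624 FPKM and *Snap25*, *Gfap*, *Ins2*, *Rbfox3* and *Myh6* below 0.1 FPKM.

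**Figure D4:**
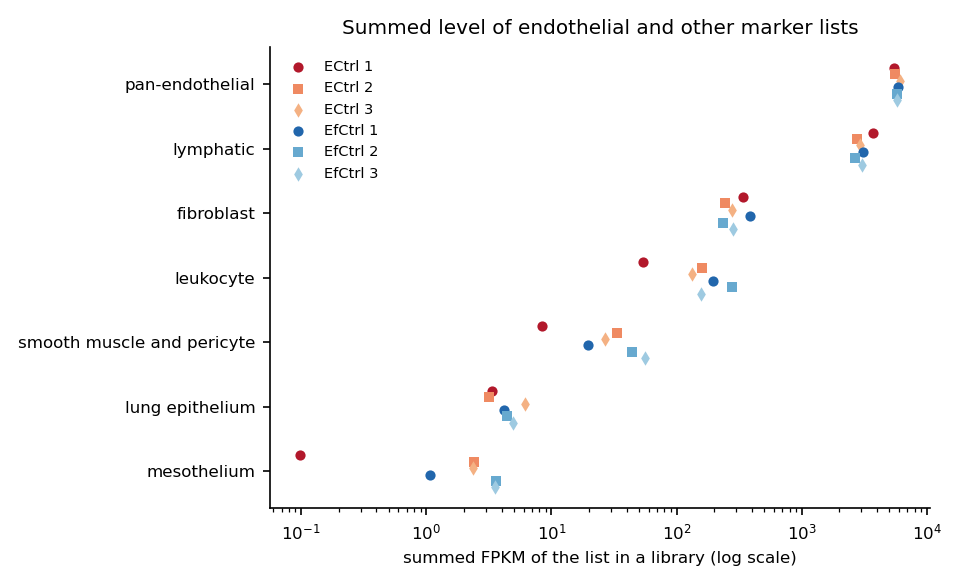
Summed FPKM of each marker list in each library (log axis), with 1 point per library, red shades for ECtrl and blue shades for EfCtrl. The pan-endothelial sums lie between 5444 and 6103 FPKM, while the leukocyte sums lie between 54.3 and 276 FPKM and the smooth muscle sums between 8.47 and 56.3 FPKM, both lowest in ECtrl replicate 1.

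The spread between libraries was lower for pan-endothelial genes than for all expressed genes. It was higher for lymphatic, arterial, leukocyte and fibroblast genes. The median coefficient of variation was 12.8% over the 9025 expressed genes and 16.2% over the 234 expressed genes of the lists. It was 10.2% for pan-endothelial genes, 18.6% for lymphatic genes, 19.3% for arterial genes, 49.9% for leukocyte genes and 42% for fibroblast genes. Over all ranked genes at 10 FPKM or more it was 10.7%, near the pan-endothelial value. The leukocyte and fibroblast medians rest on 5 expressed genes each, some of them near 2 FPKM, and spread was not compared at matched levels. The largest coefficients among listed genes were those of the collagens *Col1a1* (84.8%) and *Col1a2* (71.8%) and the complement gene *C1qb* (69.5%), which lay from 0.591 to 6.67, from 0.682 to 8.63 and from 0.210 to 4.03 FPKM. In 15 of the 234 genes (6.41%) the ECtrl and EfCtrl ranges did not overlap, against 7.28% of all expressed genes. The share in the lists was thus near that of all expressed genes, and the members apart included *Calcrl*, *Cav1*, *Vegfc* and *Sox17*.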

How the data were processed

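RNA-seq libraries were prepared by the authors from independent MLEC isolations. Per the labels, the processing used TopHat, Bowtie, Cufflinks 1.0.3 and Cuffdiff on the mm10 build, and the paper's methods state TopHat2 and paired reads of 40 bp. The deposited values are FPKM for each library, from Cufflinks, and the group FPKM of Cuffdiff, in which the authors pooled the replicates. The deposited fold changes, p-values and q-values compare groups and were not used, nor were the tables that compare the controls with JNK-deficient cells.

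Groups were taken from the sample titles. Every library value was used as deposited. Ranked genes were protein-coding by GENCODE release M21 or RefSeq, had a symbol that is not a clone or predicted name, and named 1 locus with library values. Left out were 442 rows that join several symbols, 3749 loci with a shared symbol and 2 loci without library values. In joined rows the library values lay below the group values, with a median ratio of group to library value of 2.15 over 137 joined rows of 2 symbols above 5 FPKM. Of 384 listed genes, 372 were measured, 9 were in joined rows and 3 were not analysed here. Whether the quantification used strand is not given in the sources used here, so overlapping genes on opposite strands cannot be told apart. The sum of the ranked genes was 341629 to 362453 FPKM per library, and 8892 to 9071 genes per library reached 2 FPKM. The sum over all loci differed more, from 659867 FPKM in EfCtrl replicate 3 to 915676 FPKM in ECtrl replicate 3. FPKM gives no read depth, so counting error is unknown and no interval is given.

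The marker lists, the gene pairs and the member genes were chosen with earlier results of these data known. The named genes are the 15 highest ranked, the 3 highest and those under 0.1 FPKM of each list, the 5 markers, the genes of each pair and the 3 most variable list members. Other list members are named to give their level, and *Mcph1*, *Gpr89*, *Atg9b* and the genes of families were named after their values were seen. Each gene pair was compared by an exact sign-flip permutation of its 6 differences of log2(FPKM + 0.1), which was tested on simulated data; its p-values cover only the spread between these libraries. Of the pairs, 1 is not reported here, nor are the levels of some genes. The alternatives were a minimum of 1 or 10 FPKM, a minimum met in every library, all named loci, rescaled libraries, each control alone, each library left out, the authors' group FPKM, and a pseudocount of 1 or 0.01. The fibroblast sum without *Thy1* was chosen after seeing the data. Promoter windows are from RefSeq (GRCm38.p6, which is the mm10 build). Python 3.11.15, pandas 2.3.3, numpy 2.4.6, scipy 1.17.1 and matplotlib 3.10.9 were used.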

Additional observations from a re-analysis of the deposited data

Results flagged for a closer look

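In 32 of the 205 genes named in the report 1 library lay far from the other 5, by a gap above the 95% critical value of Dixon's test for 6 samples. Chance gives such a gap in about 1 of 20 groups, and 7.56% of the 9025 expressed genes showed one. Neither share covers the genes under 2 FPKM, which are described below. Of the 135 named genes at 2 FPKM or more, 15 were affected, and in 12 of them the library was ECtrl replicate 1. This library held 44.6% and ECtrl replicate 3 held 29.9% of the 682 gaps over all expressed genes, against 3.08% to 11.4% for each of the others.

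ECtrl replicate 1 was the highest library for the lymphatic receptor *Lyve1* at 2050.4 FPKM, for the fatty acid carrier *Fabp4* at 2616 FPKM, for *Igfbp7* at 522 FPKM and for the mannose receptor *Mrc1* at 8.57 FPKM. It was also the highest for the flow-responsive factors *Klf4* at 69.1 FPKM and *Klf2* at 37.6 FPKM and for thrombomodulin (*Thbd*) at 57.7 FPKM. It was the lowest library for *Cd93* at 144 FPKM, *Erg* at 113 FPKM, *Col4a2* at 100.015 FPKM, *Csf1* at 16.7 FPKM and *Selp* at 15.9 FPKM. The remaining 3 genes at 2 FPKM or more were *Stab2*, at 13.3 FPKM in ECtrl replicate 3, *Notch2*, at 15.6 FPKM in EfCtrl replicate 3, and *Plat*, at 36.4 FPKM in ECtrl replicate 2.

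The other 17 genes, of 70 named genes under 2 FPKM on average, were near the floor. In 9 of them the other 5 libraries were listed at 0, which meets the rule whatever the size of the remaining value. The share over all genes under 2 FPKM was not computed, so these counts are not read as a trait of a library. EfCtrl replicate 2 held 7 of these traces, with *Alb* at 3.37 FPKM, *Il1b* at 0.348, *Snap25* at 0.212, *Ins2* at 0.142, *Slco1c1* at 0.0845, *Myh6* at 0.0294 and *Cspg4* at 0.0186 FPKM. The summed level of the genes of other organs was 5.53 FPKM in this library and 0.0461 to 1.49 FPKM in the others. In EfCtrl replicate 1 the genes were *Darc* at 0.412, *Rgs5* at 0.125, *Ramp1* at 0.0580 and *Car4* at 0.0561 FPKM. The rest were *Il6* at 0.224 and *Sftpb* at 0.121 FPKM in ECtrl replicate 1, *Alas2* at 0.144 and *Lum* at 0.0720 FPKM in ECtrl replicate 2, *Dll3* at 0.0262 FPKM in ECtrl replicate 3 and *Sftpa1* at 0.0936 FPKM in EfCtrl replicate 3.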

How the results depend on the processing

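Of 160 alternative values for counts of genes, list members and pairs and for the spread, 155 stayed within 1.5 times the reported value. The count of expressed genes was 5613 at a minimum of 10 FPKM. The leukocyte list had 8 members at a minimum of 1 FPKM. With each library rescaled to the same sum over ranked genes, which multiplies every FPKM by a similar factor above 1, the leukocyte list had 11 members, the epithelial list 2 and the mesothelial list 1 at the minimum. Leaving out each library in turn gave 8995 to 9031 expressed genes, 4 to 6 leukocyte and 5 to 6 fibroblast members and 16 to 17 pairs in one order, and the counts of the pan-endothelial, lymphatic, venous, arterial, capillary, sinusoidal, brain, smooth muscle, epithelial and mesothelial lists stayed as reported. No pair that passed the test changed direction under a pseudocount of 1 or 0.01, in either control alone or without any one library, but 3 or 5 libraries cannot reach an adjusted p under 0.05. No paired analysis was possible because no result compares ECtrl with EfCtrl, which leaves no contrast for a replicate block, while the test of gene pairs already takes differences within each library. FPKM without read counts limits the statements on genes below 0.1 FPKM, where a value may rest on very few fragments.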

Other observations

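Gene families were read by symbol after the values had been seen, and some of their members are also on the lists of the report. Of 29 *Hox* genes, which keep the position of a cell along the body axis, 6 were expressed, led by *Hoxd8* at 116 ± 17.6 FPKM and *Hoxd9* at 73.4 ± 10.6 FPKM, and 16 were below 0.1 FPKM. *Hoxa5*, a gene of lung mesenchyme, was at 6.93 ± 0.780 FPKM and *Hoxb5* at 8.49 ± 2.14 FPKM. Of 8 integrin beta chains *Itgb1* was highest at 482 ± 49.5 FPKM and *Itgb3* followed at 53.3 ± 6.97 FPKM, and of 17 alpha chains the laminin receptor chain *Itga6* was highest at 198 ± 16.9 FPKM. Of 10 Frizzled receptors 6 were expressed, with *Fzd6* at 125 ± 9.58 FPKM and *Fzd4*, the norrin receptor, at 19 ± 3.59 FPKM, while of 19 Wnt ligands only *Wnt5a* (5.48 ± 0.738 FPKM) and *Wnt9a* (3.21 ± 0.497 FPKM) were.

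Ion channels and guidance genes held some high single members. Of 8 voltage-gated sodium channels, *Scn3a* was highest at 179 ± 25.7 FPKM. Of 20 semaphorins 10 were expressed, led by *Sema7a* at 119 ± 16.8 FPKM and *Sema3a* at 78.7 ± 9.11 FPKM. Of 13 T-box genes only *Tbx1* was expressed. Of 25 claudins 4 were expressed, with *Cldn25* at 36.8 ± 5.45 FPKM after *Cldn5*. Of 45 keratins only *Krt18* was expressed, and 26 were listed at 0. None of 1082 olfactory receptors and none of 316 vomeronasal receptors was expressed, and 1054 and 305 of them were listed at 0 in all 6 libraries.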
